A study of Mus musculus with 3 samples.

Results

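The genes described here encode heterogeneous nuclear ribonucleoproteins (hnRNPs) and related RNA-binding proteins, without the PTB family itself. They were taken from the table of gene levels by symbol, as every row whose aliases held a listed symbol or its older form (Hnrp for Hnrnp). Of 34 listed genes 33 were found, among 27224 gene clusters used in all. Hnrnpa0 was the gene with no matching alias. Hnrpll was the only gene with more than 1 row, and its row with the highest mean was kept.

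The libraries came from CAD cells, a catecholaminergic mouse neuroblastoma line, 72 h after lipid transfection of siRNA pools. The control library had control siRNAs, the Ptbp1 siRNA library had siRNAs against Ptbp1, and the third library had siRNAs against Ptbp1 and Ptbp2. No other allele or agent was given for any group. Each group was 1 library of poly(A)+ RNA read as 36-base pairs, so no difference below has a replicate check and no p-value is given. The clusters held between 14242557 and 16899510 reads per library.

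hnRNPs coat nascent transcripts and steer splice site choice, polyadenylation, export, stability and translation, mostly through RNA recognition motifs (RRMs) or KH domains. Most are abundant in every cell type, and many limit their own messages through alternative exons or introns that send the RNA to nonsense-mediated decay or keep it in the nucleus. Polypyrimidine tract binding proteins (PTBP1, once called hnRNP I, and its neuronal paralogue PTBP2) belong to the same broad class and bind pyrimidine-rich RNA in competition or cooperation with several of these proteins.

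Levels are given as reads, as CPM (reads relative to the scaled library size) or, between genes, as the deposited RPKM, which also divides by exonic length. Differences are on the log2(CPM + 1) scale, and folds are CPM ratios with a 95% interval of the read ratio. The intervals treat the deposited values as raw counts, which they are not in full, since some are below 0 and what was subtracted is not stated. They cover counting error only and do not cover variation between cultures. A gene was called by size when its difference was at least 2-fold, it reached 1 CPM in the pair and its interval excluded 1, and a limit of 1.5-fold was counted in the same way. All 33 members passed the filter in each pair, through every library and not only the higher one. In bulk RNA, a change in the number of cells of a type and a change in RNA per cell cannot be told apart.

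The labels were checked first. For Ptbp1 the reads numbered 7191 (control), 1486 (Ptbp1 siRNA) and 1516 (both siRNAs). Ptbp2 had 784, 3044 and 633 reads in the same order, so the Ptbp1 siRNA library was the 1 with high Ptbp2 RNA and the library with both siRNAs was near the control. The catecholaminergic neuronal markers were present, 8 of 8 with reads in every library and a summed level between 3136 and 3672 CPM, but they did not keep their proportions. After both siRNAs Dbh was 2.32-fold (2.21 to 2.45) and Phox2a 2.07-fold higher (1.94 to 2.20), and Stmn2 was 1.40-fold lower (1.33 to 1.47). After Ptbp1 siRNA alone Dbh was 1.98-fold (1.88 to 2.09) and Phox2a 1.17-fold higher (1.10 to 1.25). In that library Stmn2 was 1.42-fold (1.36 to 1.48) and Chgb 1.46-fold lower (1.44 to 1.49). Markers of fibroblasts (5 genes, summed level 5.18 to 9.49 CPM) and of blood and endothelium (5 genes, 11.8 to 22.4 CPM) were low. Most of the fibroblast sum was Col1a1, with 122, 88 and 48 reads, 2.37-fold lower after both siRNAs (1.69 to 3.39). Most of the blood and endothelial sum was Pecam1, with 335, 259 and 161 reads, 1.94-fold lower (1.61 to 2.36). Col1a2 and Hbb-b1 were at 0 reads in all 3 libraries. The 4 astrocyte markers summed to 53.1, 48.5 and 32.5 CPM, nearly all of it Fgfr3, while Gfap had 2 reads or fewer. The fibroblast, blood and astrocyte sums were lowest after both siRNAs, and the part of these and of the neuronal markers in the values below was not tested.

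Hnrnpd is the gene the results turn on, and its D-type relatives Hnrpdl and Hnrnpab show how alike the family is in sequence. All encode proteins with a pair of RRMs, and Hnrnpd, also known as Auf1, binds AU-rich elements in unstable messages. The stretches below are coding DNA of the mm9 build around the first RNP1 element, the core RNA-contacting octamer of an RRM, whose codons are in capitals. Each lies in 1 exon on the minus strand, Hnrnpd at chr5:100396241-100396306, Hnrpdl at chr5:100466835-100466900 and Hnrnpab at chr11:51418966-51419031.
Hnrnpd: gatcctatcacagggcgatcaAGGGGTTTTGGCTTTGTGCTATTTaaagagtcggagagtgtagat
Hnrpdl: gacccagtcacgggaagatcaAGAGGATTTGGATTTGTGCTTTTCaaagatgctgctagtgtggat
Hnrnpab: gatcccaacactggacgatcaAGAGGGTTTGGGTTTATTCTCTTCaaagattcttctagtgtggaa
Of the 66 positions 44 were identical in all 3 genes, and of the 24 in the octamer 17 were. Over the whole coding sequence Hnrnpd was 69.5% identical to Hnrpdl and 71.5% to Hnrnpab at aligned bases. The longest exact run that either shared with Hnrnpd was 14 bases, shorter than a read of 36 bases. Of the annotated exon bases of Hnrnpd, 7.92% are shared with Gm17092, and 0.111% of its annotated exon words of 36 bases occur elsewhere in the genome. The annotated exons hold 4863 bases and the counted cluster 6810, so part of that cluster was not searched.

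Hnrnpd (chromosome 5, 100384956 to 100407958) was read 1572 times in the control, 2378 times with Ptbp1 siRNA and 3266 times with both siRNAs. These correspond to 102, 138 and 226 CPM, so the level was lowest in the control and highest with both siRNAs. Relative to the control, the level with Ptbp1 siRNA was 1.36-fold higher (95% interval 1.28 to 1.45) and that with both siRNAs 2.22-fold higher (2.09 to 2.36). Between the knockdown libraries it was 1.63-fold higher with both siRNAs (1.55 to 1.72). Over all scalings, pseudocounts and filters tried, its difference after both siRNAs lay between 1.12 and 1.22. In the order of members by deposited RPKM, Hnrnpd moved from rank 31 of 33 in the control library to 25 after both siRNAs.

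Hnrpdl, which encodes the hnRNP D-like protein, had 2444, 2772 and 2650 reads. It was 1.02-fold higher after Ptbp1 siRNA (0.966 to 1.08) and 1.16-fold higher after both (1.10 to 1.23), so its libraries lay much closer together than those of Hnrnpd. Hnrnpab, whose product also goes by CBF-A, had 10628, 11905 and 12765 reads. It was 1.01-fold higher (0.982 to 1.03) and 1.29-fold higher (1.25 to 1.32). With quantile scaling its difference after Ptbp1 siRNA was 0.14. About 26.9% of its annotated exon bases lie in the neighbouring gene Agxt2l2, and without strand those reads cannot be told apart. Summed over the D-type genes, the level was 946 CPM in the control, 991 after Ptbp1 siRNA and 1291 after both siRNAs.

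**Figure D1:**
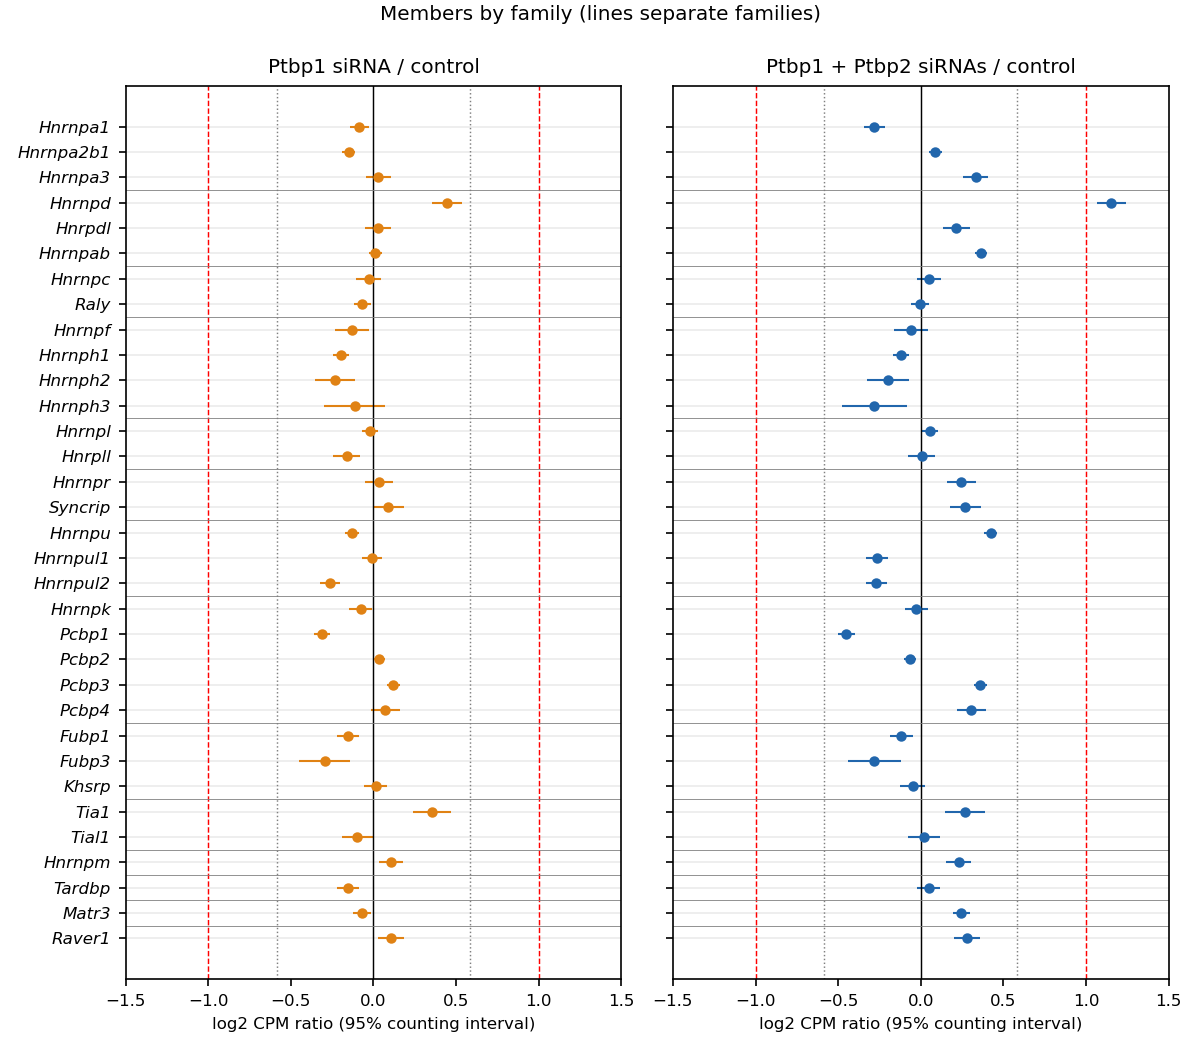
Log2 CPM ratio of each of the 33 members to the control (points, with 95% counting intervals), after Ptbp1 siRNA on the left and after Ptbp1 plus Ptbp2 siRNAs on the right, with lines between families. Dashed lines mark 2-fold and dotted lines 1.5-fold; Hnrnpd is the 1 member beyond either line, in the right panel.

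Differences of 1.5-fold or more were rare among the members. After Ptbp1 siRNA none of 33 was called at 2-fold, where 0.724% of 13399 clusters tested were (0.269% higher and 0.455% lower), and none at 1.5-fold, where 6.39% of all clusters and 3.76% of clusters at least as abundant as the lowest member were. Their median difference was -0.07, with a range from -0.31 (Pcbp1) to 0.44 (Hnrnpd), and the median of all clusters tested was -0.01. The members' median turned to 0.01 with library totals, where that of all clusters was 0.06, and to 0.04 with quantile scaling, where that of all clusters was 0.01. After both siRNAs Hnrnpd alone was called at 2-fold, higher, which is 3.03% of the members beside 3.73% of 13465 clusters (1.05% higher and 2.67% lower), a share near the background. Hnrnpd was also the only member past 1.5-fold, beside 17.3% of all clusters. Thus 32 of 33 members lay within 1.5-fold of the control, against 82.7% of all clusters and 86.8% of the 7161 clusters with at least the mean level of the lowest member (28.7 CPM). Within a narrower band of 0.2 on the log2 scale lay 14 of 33 members (42.4%) and 38.5% of all clusters, a share near the background. The median over members was 0.05 and that over all clusters -0.01.

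Between the knockdown libraries no member was called at 2-fold (background 0.431%, of which 0.0891% higher and 0.342% lower), and at 1.5-fold Hnrnpd was the only 1, higher with both siRNAs (3.03% of members, background 5.35%). The members' median was 0.08 and that of all clusters 0.00, with 25 of 33 members above 0 against 49.4% of clusters. A list of 34 other RNA-binding protein genes, described below, had a higher median of 0.16, with 28 above 0. The 3 comparisons share libraries, so these medians are not independent of each other.

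**Figure D2:**
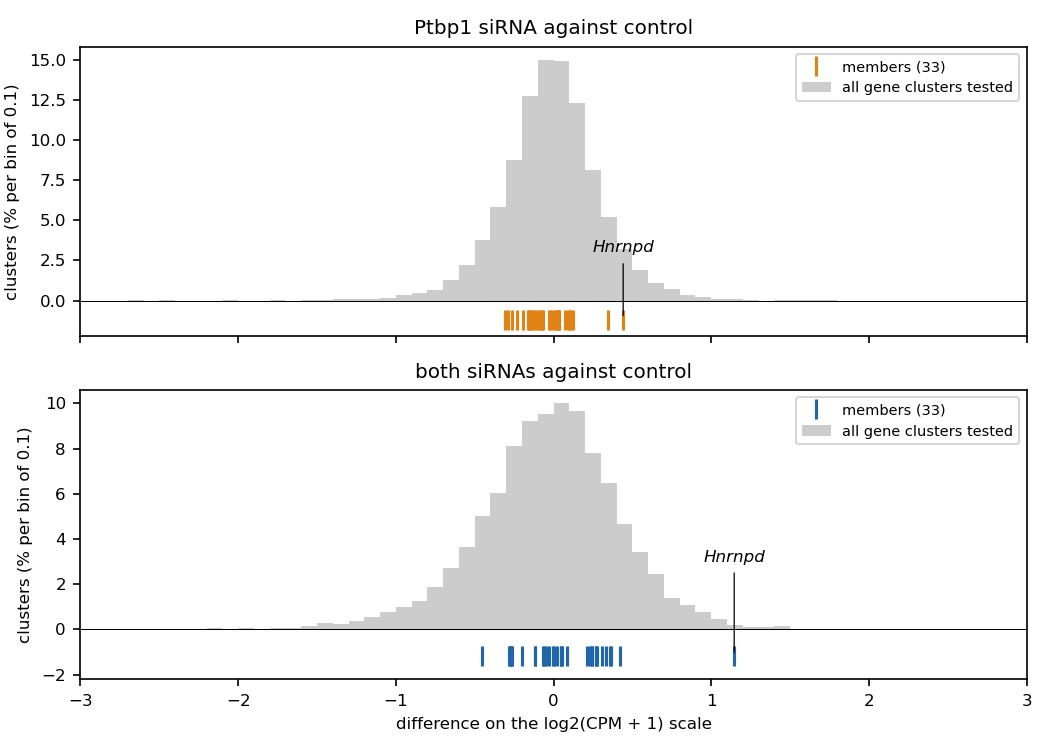
Differences from the control on the log2(CPM + 1) scale for all gene clusters tested (grey bars, % of clusters per bin of 0.1) and for the 33 members (ticks), after Ptbp1 siRNA above and both siRNAs below. The ticks cover -0.31 to 0.44 above and -0.45 to 1.15 below, with Hnrnpd at the right end of each.

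Counting error was small for these genes, so many differences under 1.5-fold had intervals that excluded 1. After Ptbp1 siRNA 6 members were higher by this measure and 16 lower, beside 21.1% and 26.2% of all clusters. After both siRNAs 15 were higher and 10 lower (29% and 32.1% of clusters), and between the knockdown libraries 20 were higher and 4 lower (22.3% and 22.5%). Abundant genes pass this limit at smaller differences than rare ones, so the shares are not on equal terms. With 1 library per group, differences of this size cannot be told apart from variation between cultures. Library-total scaling, quantile scaling or the deposited RPKM changed the sign of 3 to 6 members in each comparison with the control. Part of this is a shift of all clusters alike, since with library totals the median of all clusters tested moved from -0.01 to 0.06 in each of these comparisons. In both such comparisons 6 members had no sign common to all 5 scalings, and their differences were between -0.13 and -0.00.

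The control library gives the levels. Per length, Pcbp2 was highest with a deposited RPKM of 388, followed by Pcbp1 at 185, Hnrnpab at 173 and Pcbp3 at 143. This order depends on the counted lengths, which ran from 37.1% (Hnrnpl) to 300% (Hnrpll) of the annotated exon length. For Pcbp2 the share was 50.5%. Pcbp2 and Pcbp1 encode poly(C)-binding proteins of most tissues. Tia1 and Fubp3 (8.29) were the lowest. Means over the 3 libraries spanned 53.0-fold from Pcbp2 to Fubp3. The order hardly differed between libraries. Its rank correlation with the control was 0.99 after Ptbp1 siRNA and 0.97 after both, a description over 33 genes that share these libraries. Apart from Hnrnpd, which moved by 6 ranks, no member moved by more than 5 between the control and both siRNAs. Together the members held 0.889%, 0.904% and 0.999% of cluster reads in the control, Ptbp1 siRNA and Ptbp1 plus Ptbp2 siRNA libraries.

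**Figure D3:**
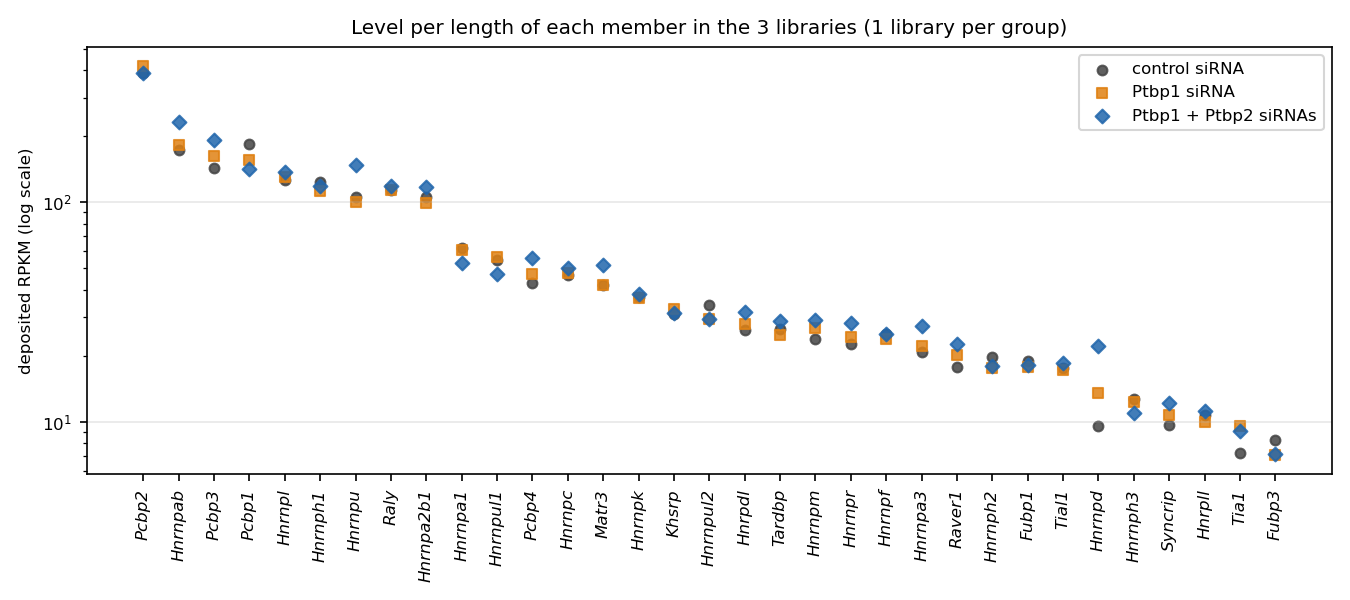
Deposited RPKM (log scale) of each member in the control (circles), Ptbp1 siRNA (squares) and Ptbp1 plus Ptbp2 siRNA (diamonds) libraries, ordered by mean. The markers overlap for most genes, and Hnrnpd is the gene whose 3 markers are farthest apart, from 9.55 to 22.2.

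The poly(C)-binding genes pointed both ways. Their products bind C-rich RNA through 3 KH domains, and Pcbp1 is an intronless gene with a single annotated exon. The coding DNA around the glycine-rich loop of the first KH domain is shown because the genes are alike there while their levels differed in direction. The codons of the loop and of its preceding isoleucines are in capitals. In mm9 they lie at chr6:86475790-86475849 (minus strand, Pcbp1), chr15:102303825-102304704 (plus, Pcbp2), chr10:76261378-76263513 (minus, Pcbp3) and chr9:106362472-106362754 (plus, Pcbp4). The last 3 of these spans include an intron.
Pcbp1: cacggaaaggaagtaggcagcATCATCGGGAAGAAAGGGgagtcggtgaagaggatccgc
Pcbp2: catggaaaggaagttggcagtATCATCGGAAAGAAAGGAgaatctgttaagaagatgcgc
Pcbp3: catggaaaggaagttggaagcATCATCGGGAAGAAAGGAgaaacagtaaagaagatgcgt
Pcbp4: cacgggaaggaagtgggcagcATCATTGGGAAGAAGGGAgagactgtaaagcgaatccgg
Of 60 positions 42 were identical in all 4. Pcbp1 and Pcbp2 were the most alike over the coding sequence, 82.4% at aligned bases, with a longest shared run of 33 bases.

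Pcbp1 (chromosome 6, 86474492 to 86476160) was read 7462, 6680 and 5095 times in the order control, Ptbp1 siRNA, both. At 1.24-fold (1.20 to 1.28) and 1.37-fold lower (1.32 to 1.42) it was the lowest member in each comparison with the control. Pcbp2 had 13584, 15457 and 12130 reads and was 1.02-fold higher and 1.05-fold lower, and its sign after both siRNAs turned under 3 of the other scalings. About 59.3% of its annotated exon bases lie in other genes, Map3k12 and Gm17403. The counted cluster of Pcbp2 has 50.5% of the annotated length and its span overlaps no other cluster, and its shared part was not measured. Pcbp3, a paralogue with a more restricted expression, had 8930, 10786 and 10710 reads, a level 1.09-fold (1.06 to 1.12) and 1.28-fold higher (1.25 to 1.32). Pcbp4 had 1920, 2241 and 2218 reads and was 1.24-fold higher after both siRNAs (1.16 to 1.32). Hnrnpk, the KH-domain hnRNP that also binds C-rich sequence, had 3367, 3544 and 3087 reads and stayed within 1.06-fold of the control, with 48.4% of its exon words repeated elsewhere. The summed level of these 5 genes was nearly level, at 2277, 2250 and 2298 CPM.

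The A/B-type genes, whose proteins bind UAG-containing RNA and often repress exons, also differed among themselves. Hnrnpa2b1 had the highest level, with 10482, 10501 and 10397 reads, 1.11-fold lower after Ptbp1 siRNA (1.08 to 1.14) and 1.06-fold higher after both (1.03 to 1.09). Hnrnpa1 had 4714, 4933 and 3621 reads and was 1.22-fold lower after both (1.16 to 1.27), while Hnrnpa3 had 2625, 2976 and 3090 and was 1.26-fold higher (1.20 to 1.33). Most of the annotated exon sequence of the last 2 genes is repeated, since 87.7% and 86.6% of its words of 36 bases occur elsewhere in the genome. For Hnrnpa1 the annotated exons hold 1126 bases and the counted cluster 3153, so part of that cluster was not searched. How the authors placed reads that match several places was not given, so these values are uncertain. A cluster without a symbol at the annotated place of Hnrnpa0 (chromosome 13, 58227242 to 58228750) had 1358, 1274 and 1790 reads. It was 1.18-fold lower after Ptbp1 siRNA (1.10 to 1.28) and 1.41-fold higher after both (1.31 to 1.52), a 1.67-fold step between the knockdown libraries (1.55 to 1.80). That step passed the 1.5-fold limit and was slightly larger than the 1.63-fold step of Hnrnpd. The Hnrnpa0 cluster was looked up after the values were seen and enters no count of members.

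**Figure D4:**
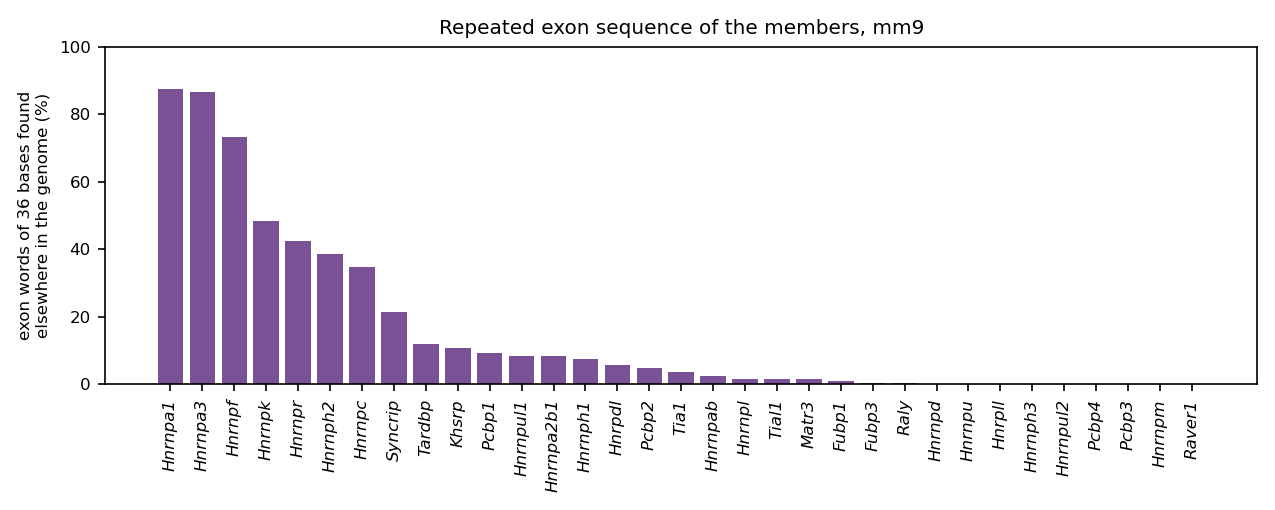
Share (%) of the 36-base words in each member's annotated exons that occur at another place of the mm9 genome, on either strand. Hnrnpa1 (87.7%), Hnrnpa3 (86.6%) and Hnrnpf (73.2%) are highest, and Hnrnpd is at 0.111%.

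Among the 33 matched members, the largest step between the knockdown libraries after that of Hnrnpd was in a U-type gene. Hnrnpu, also called SAF-A, encodes a scaffold attachment factor that binds chromatin-associated RNA. It had 9184, 9319 and 11508 reads, was 1.09-fold lower after Ptbp1 siRNA (1.06 to 1.13) and 1.34-fold higher after both siRNAs (1.30 to 1.38). The span of Hnrnpu overlaps another cluster, as do those of Hnrnpab, Raly, Hnrpll, Hnrnpk and Raver1. Of the annotated Hnrnpu exon bases, 4.49% are shared with Gm16586. The direction of Hnrnpu after Ptbp1 siRNA turned under quantile scaling. With both siRNAs it was 1.47-fold above the Ptbp1 siRNA library (1.43 to 1.51). Its relatives Hnrnpul1 (4034, 4457 and 3134 reads) and Hnrnpul2 (4698, 4345 and 3644) were each 1.20-fold lower after both siRNAs. The family therefore had members on either side of the control.

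Genes of the F/H type, whose proteins bind G-runs beside splice sites, were at or below the control. Hnrnph1, the most abundant, had 7179, 6957 and 6173 reads, a level 1.15-fold (1.11 to 1.19) and 1.09-fold lower (1.05 to 1.12). Differences of the 4 genes after both siRNAs ran from -0.27 (Hnrnph3) to -0.06 (Hnrnpf), and those of Hnrnph1 and Hnrnpf changed sign under another scaling. Hnrnph3 rests on 485, 498 and 373 reads, and 75.5% of its annotated exon bases lie in Rufy2 as well. Its counted cluster has 50.1% of the annotated length and its span overlaps no other cluster. The shared part of the counted sequence was not measured. For Hnrnpf and Hnrnph2, 73.2% and 38.6% of exon words are repeated elsewhere.

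The C-type pair and the L-type pair lay close to the control. Hnrnpc, which encodes the U-tract binding C proteins, had 2894, 3150 and 2798 reads, and its relative Raly 5969, 6332 and 5557. For Hnrnpc, 34.8% of exon words are repeated. Their differences lay between -0.07 and 0.05. Hnrnpl, a CA-repeat binding splicing regulator, had 6720, 7365 and 6528 reads, and Hnrpll, its relative known from T cell splicing of Ptprc, 2423, 2406 and 2272. These lay between -0.16 and 0.06. In the R/Q pair, Hnrnpr had 2049, 2328 and 2269 reads and Syncrip, the hnRNP Q gene, 1714, 2028 and 1931. They were 1.19-fold (1.12 to 1.26) and 1.21-fold higher after both siRNAs (1.13 to 1.29), with 42.6% and 21.6% of exon words repeated elsewhere.

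Among the single genes, Raver1 encodes a protein that binds PTBP1 and acts as its co-repressor in splicing. It had 2423, 2894 and 2743 reads, 1.07-fold (1.02 to 1.14) and 1.21-fold higher (1.15 to 1.28). Matr3, the gene of the nuclear matrix protein matrin 3, also a PTBP1 partner, had 5422, 5737 and 6007 reads and was 1.19-fold higher after both siRNAs (1.14 to 1.23). Hnrnpm had 2806, 3351 and 3073 reads and was 1.17-fold higher (1.11 to 1.23). Tardbp, the TDP-43 gene, had 3628, 3627 and 3501 reads and was 1.11-fold lower after Ptbp1 siRNA and 1.03-fold higher after both.

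Tia1 and Tial1 encode U-rich RNA-binding proteins that promote use of weak 5′ splice sites and form stress granules. Tia1 had 1061, 1504 and 1195 reads, so its level was highest in the Ptbp1 siRNA library, 1.28-fold above the control (1.18 to 1.38) and 1.21-fold after both (1.11 to 1.31). It was the member with the highest difference after Ptbp1 siRNA next to Hnrnpd. Tial1 had 1846, 1917 and 1748 reads and lay between -0.10 and 0.02. The FUSE-binding genes encode KH-domain proteins, of which KSRP (Khsrp) promotes decay of AU-rich messages. Khsrp had 3002, 3364 and 2710 reads and Fubp1 3663, 3656 and 3151. Fubp3 had 731, 662 and 562 reads, a level 1.23-fold (1.10 to 1.36) and 1.22-fold lower (1.09 to 1.36).

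By order of CPM over the 3 libraries, 15 members were lowest after Ptbp1 siRNA, among them Hnrnpu, Hnrnpa2b1, Matr3 and Tardbp. Another 10 were lowest in the control and highest with both siRNAs, with the Ptbp1 siRNA library between, among them all 3 D-type genes, Pcbp3, Pcbp4, Raver1 and Hnrnpm. The reverse order held for 5 members (Hnrnpa1, Hnrnph3, Hnrnpul1, Hnrnpul2 and Pcbp1), and 3 were highest after Ptbp1 siRNA (Pcbp2, Khsrp and Tia1). The shares were 45.5%, 30.3%, 15.2% and 9.09% of members, beside 22.4%, 29.0%, 31.9% and 16.6% of clusters at least as abundant. Several of these orders rest on differences smaller than the shift between scalings.

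Because many hnRNP genes make decay or intron-retaining transcripts, the annotation of the same build was used to split the members. GENCODE lists a nonsense-mediated decay or retained-intron transcript for 12 of 33 members (36.4%) and for 39.9% of 10293 tested protein-coding genes matched to it. Hnrnpd has 4 decay and 1 retained-intron transcripts among its 12, Tia1 has 1 and 5 among 23, and Hnrnpl 1 and 7 among 15. After both siRNAs the 12 members had a median of 0.25, with 11 of them above 0, and the other 21 had a median of -0.05, with 8 above 0. Over all genes the corresponding medians were -0.03 and -0.01, with 47.2% and 49.1% above 0. The 1 member of the first class below 0 was Hnrnph3. After Ptbp1 siRNA the members' medians were 0.03 and -0.08. The split was made after the values were seen and is a description of these libraries. The first class also has more annotated transcripts (median 10.5 against 3), and the gene totals do not separate transcripts. After both siRNAs the class medians were 0.32 and 0.02 with library totals (all clusters 0.06), 0.29 and 0.03 with quantile scaling (all clusters 0.02) and 0.29 and 0.02 with RPKM (all clusters 0.04). Under each of these scalings 11 of the 12 and 13 of the 21 were above 0, so the classes differed less in sign than with the main scaling.

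**Figure D5:**
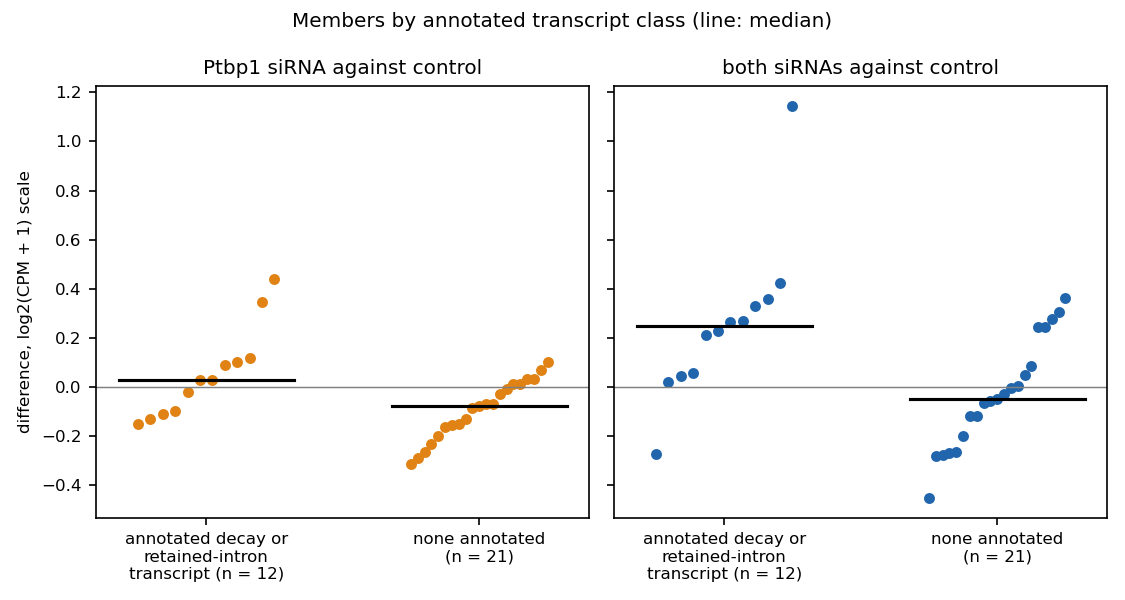
Difference from the control on the log2(CPM + 1) scale for members with (12) and without (21) an annotated decay or retained-intron transcript, after Ptbp1 siRNA on the left and both siRNAs on the right. Points are genes and black lines medians, which are 0.03 and -0.08 on the left and 0.25 and -0.05 on the right.

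PTB proteins bind pyrimidine-rich motifs, often just upstream of exons. The last 100 bases of annotated introns were searched on the sense strand for TCTT and CTCT, with overlaps counted. Introns of coding and decay transcripts were used, without the shortest, and those that share a 3′ end were counted separately. At least 1 match was found in 81.5% of 406 introns of members and in 81.6% of 124604 introns of tested genes. The median was 2 in each set, and the means were 1.85 and 2.13. Hnrnpd is shown as the gene with the largest difference. The window below (mm9, chr5:100396407-100396506, minus strand) ends at the 3′ splice site before the exon that holds its RNP1 element and has 3 matches, in capitals. No window of the gene had more, and its other windows had 0 to 2 matches, most of them 1. The median over introns of tested genes was 2.
Hnrnpd: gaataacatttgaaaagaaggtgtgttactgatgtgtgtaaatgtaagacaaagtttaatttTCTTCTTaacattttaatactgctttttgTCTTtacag
In all, 34.3% of introns of tested genes had at least the 3 matches of this window. A match is a description of the sequence and not a binding site.

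Other RNA-binding protein genes were taken from a list of 35 nuclear and cytoplasmic factors that are no members, of which 34 were matched and 32 tested. None was called at 2-fold in any pair. At 1.5-fold 3 were higher and none lower after both siRNAs (7.23% and 10% of all clusters), and none after Ptbp1 siRNA (2.93% and 3.46%). Between the knockdown libraries 1, Sfpq, was higher and none lower (1.83% and 3.52%). Dhx9, an RNA helicase gene, had 3320, 4770 and 5668 reads and was 1.83-fold higher after both siRNAs (1.75 to 1.91). Sfpq and Pspc1 encode paraspeckle proteins, and Sfpq is the PTB-associated splicing factor. Sfpq had 3194, 3637 and 4813 reads and was 1.61-fold higher (1.54 to 1.69), and Pspc1 had 679, 1005 and 1015 and was 1.60-fold higher (1.45 to 1.77). Csda, a cold shock domain gene, was next at 1.42-fold (1.37 to 1.48). The median of the 34 after both siRNAs was 0.15, beside 0.05 for the members and -0.01 for all clusters tested. Of the 34, 27 were above 0, beside 48.9% of all clusters tested. Both values, and those of the list between the knockdown libraries, include the untested Khdrbs3 and Raver2. These had 5 reads or fewer in each library and differences above 0.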

How the data were processed

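The deposited table gives whole-number read values per gene cluster and library, exonic length and RPKM, per the file headers, and mm9 is the build per the submitters' processing notes. Not given in the sources used here were the aligner, the counting tool and whether a value counts reads or pairs. The authors' read values are net counts: 38 of 27389 clusters held a value below 0 (lowest -65) and were left out, as were 127 with no length. Here, TMM factors (trimming 30% of M and 5% of A; numpy 2.4.6) were 0.967 for the control library and 1.02 for each knockdown library, so that 1 CPM is 15.5, 17.2 and 14.5 reads. Differences use a pseudocount of 1 CPM, and intervals are Clopper-Pearson limits of the conditional binomial share (scipy 1.17.1), which assume raw counts and do not cover the subtraction. The calling step was checked on simulated counts with counting error only, so that check does not cover variation between cultures or the subtraction. Clusters, not symbols, are the background.

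The groups had 1 library each, and nothing said how many cultures they came from. The members and lists were chosen with earlier results of these data known. Values in every library were given for members past 1.5-fold in any pair and the most abundant of each family, and for further members after their values were seen. Of the other list, the 4 largest differences after both siRNAs were named. Exon overlap, repeated words, transcript classes, coding identity (biopython 1.88) and introns came from GENCODE M1 and the NCBIM37 genome, the same build. Coding DNA identity replaced the planned protein identity. The PCR-amplified reads have no molecular identifiers, and intervals cover counting error only.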

Additional observations from a re-analysis of the deposited data

How the results depend on the processing

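The counts of members called and the medians over members were recomputed with pseudocounts of 0.1 and 5 CPM, no filter or 5 CPM, other scalings, the deposited RPKM, summed rows, without the 6 members whose span overlaps another cluster, and, chosen after seeing the data, without 13 members with repeated or shared exon sequence. The call of Hnrnpd after both siRNAs held in each, and 0 members were called in the other pairs. At a limit of 3-fold that count was 0, and at 1.5-fold the count between the knockdown libraries was 1. The median after Ptbp1 siRNA became 0.00727 with library totals (all clusters 0.0596) and 0.0407 with quantile scaling (all clusters 0.00689). Other medians moved by less than the median half-width of the members' counting intervals (0.071 to 0.074 on the log2 scale, by comparison). Of 972 values of single members, under these settings except the added one and the size limits, 888 stayed within their counting interval and 84 moved past it. All moves came with library totals (34), the deposited RPKM (28) or quantile scaling (22). Filters and leaving out overlapping members cannot change a member's difference, and summing rows can change only that of Hnrpll. Called values that reversed numbered 0, but only that of Hnrnpd after both siRNAs was called, so no other could. The cause of the moves was not tested. No paired analysis was possible because each group had 1 library, and no replicate could be left out. Depth limits little here: the least covered member, Hnrnph3, had 373 reads or more.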
